A study of Mus musculus with 6 samples.

Results

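The genes described here encode IL-10 and its receptor chains, the subunits of the IL-12 family, and IL-6 with its receptor. The members were taken by gene symbol: Il10, Il10ra, Il10rb, Il12a, Il12b, Il23a, Il27, Ebi3, Il6 and Il6ra, which are 10 of the 55401 genes listed. All 10 were found and all 10 passed the low-count filter. RNA was measured by sequencing of poly(A)-selected libraries from cells isolated by F4/80, a surface marker of macrophages. They came from tumours that grew for 14 days in mouse livers from injected Hepa 1-6 hepatoma cells. In the Sms_OE group, 3 libraries, the injected cells overexpressed Sms, the spermine synthase gene, from a lentivirus. In the control group, 3 libraries, the labels give the genotype as WT Control, and whether those cells carried an empty virus is not given. Hepa 1-6 is a single mouse line, so both groups share 1 tumour background. Mouse strain, age, sex and any pooling of animals are not given, nor is it given whether replicates are separate mice, so each p-value reflects only how these libraries varied, which may be technical.

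IL-10 is a cytokine that restrains inflammatory gene expression in macrophages. It binds a receptor of a ligand-binding chain, Il10ra, and a chain shared with other cytokines, Il10rb, and signals through JAK1, TYK2 and STAT3. The IL-12 family is built from shared subunits. IL-12 pairs the p35 subunit (Il12a) with p40 (Il12b), IL-23 pairs p19 (Il23a) with the same p40, IL-27 pairs p28 (Il27) with EBI3 (Ebi3), and EBI3 with p35 forms IL-35. IL-12 promotes interferon-gamma production by T and NK cells, and IL-23 sustains IL-17-producing lymphocytes. IL-6 acts through Il6ra and the signal-transducing chain gp130 (Il6st), which also leads to STAT3.

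Totals were 49833764 to 51123047 estimated counts in Sms_OE libraries and 51583985 to 58154006 in controls, and values are given as CPM, counts scaled to the same total in each library (with TMM factors). Sms in the sorted cells averaged 33.1 ± 0.14 CPM in Sms_OE and 26.9 ± 1.3 CPM in controls (mean ± SD, n = 3 each; adjusted p = 0.0382 by edgeR's quasi-likelihood test, and 0.0719 to 0.122 with any 1 of the 6 libraries left out and 0.232 without the haemoglobin-rich libraries below). Sms in the injected cells was not measured here. The summed level of 10 macrophage markers was 4056 to 4315 CPM in Sms_OE and 3817 to 4067 CPM in controls. None of them was at 0, with 1 higher and 5 lower by the test below. The 1 higher was Itgam, the most abundant of them (1481 ± 67 CPM in Sms_OE, 976 ± 96 CPM in controls). It weighs heavily in the sum, which therefore does not show the 5 falls. Adgre1, the gene of F4/80, averaged 569 ± 78 CPM in Sms_OE and 449 ± 105 CPM in controls. RNA of other cell types was present too: 8 neutrophil markers summed to 4325 to 6066 CPM in Sms_OE and 5179 to 7732 CPM in controls, and 10 T cell markers to 396 to 652 CPM in Sms_OE and 343 to 523 CPM in controls. Although the neutrophil sums ran lower in Sms_OE with overlap, 2 of the 8 neutrophil markers were higher and 0 lower by the test below. The mitochondrial share of counts was 2.57 ± 0.50% in Sms_OE and 5.97 ± 1.1% in controls (p = 0.1 in an exact two-sided permutation test, which can give no smaller value with 3 against 3). Haemoglobin RNA made up 0.485% and 0.512% of Sms_OE replicates 2 and 3 and at most 0.0225% of the other 4 libraries, so values without these 2 libraries, which leave 1 Sms_OE library assumed to vary like the controls, are given beside the results they touch.

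Il10 and Il12a rose and Il6 and Il23a fell in F4/80+ cells from Sms_OE tumours, and the other 6 genes did not pass an adjusted p of 0.05. That is 4 of 10 members called, against 26.9% of the 18277 genes tested, with 2 higher (background 12.5%) and 2 lower (background 14.3%). The values of the groups did not overlap for 5 of 10 members, the called genes and Il12b, where 44.1% of all tested genes also did not overlap. Shares of 40% and 50% in only 10 genes are near those backgrounds and are not read as a result about the group. The median log2 fold change of the 10 genes was 0.04, and that of all tested genes -0.00. Without Sms_OE replicate 3, and without both haemoglobin-rich libraries, 1 member was lower instead of 2. In bulk RNA, fewer cells of a type and less RNA per cell cannot be told apart.

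**Figure D1:**
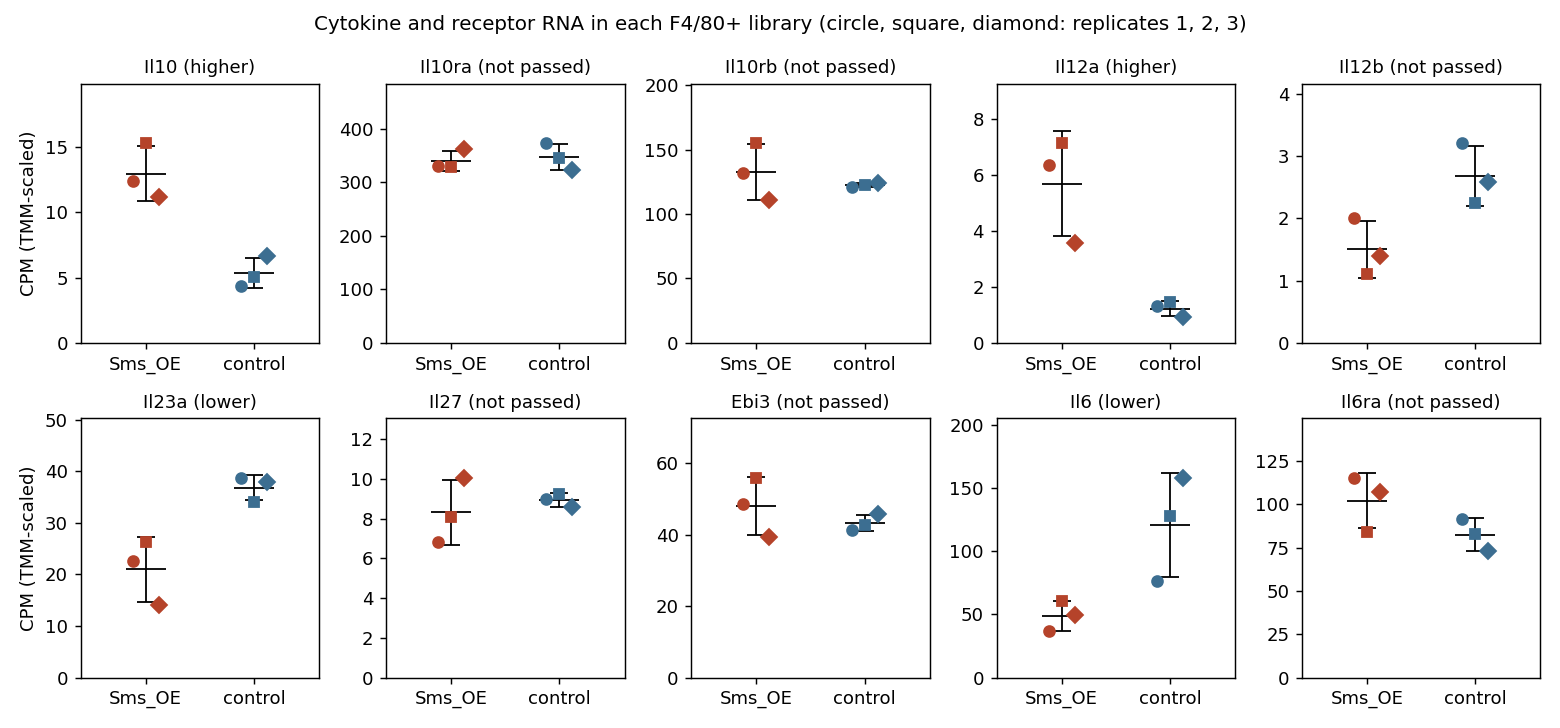
TMM-scaled CPM of each of the 10 genes (y axis, from 0) in the 3 Sms_OE and 3 control libraries, with the group mean and SD as black bars and the call in each title. The Il10 and Il12a points of Sms_OE lie above all control points, and those of Il6, Il23a and Il12b lie below them, while the other 5 genes overlap.

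Il10 (ENSMUSG00000016529, chromosome 1, 131019845 to 131024974, plus strand, GRCm38) was read at 12.4, 15.3 and 11.2 CPM in Sms_OE replicates 1 to 3, against 4.37, 5.03 and 6.66 CPM in control replicates 1 to 3. The lowest Sms_OE library stood well above the highest control library. The rise was 2.42-fold (log2 1.28 ± 0.20 SE, adjusted p = 0.00177 by edgeR's quasi-likelihood test). It rested on 578 to 761 counts in Sms_OE and 262 to 320 counts in controls. The call was kept with each library left out (adjusted p = 0.00386 to 0.0138) and without both haemoglobin-rich libraries (log2 1.21, adjusted p = 0.0382).

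The receptor chains for IL-10 did not pass the test. Il10ra (chromosome 9, 45253837 to 45269149), the ligand-binding chain, had 331, 328 and 362 CPM in Sms_OE and 372, 345 and 323 CPM in controls, with the groups interleaved (log2 -0.03 ± 0.09 SE, adjusted p = 0.859). Its sign turned under several settings. Il10rb (chromosome 16, 91406164 to 91425834), the shared chain, had 132, 155 and 111 CPM in Sms_OE and 121, 123 and 124 CPM in controls (log2 0.11 ± 0.11 SE, adjusted p = 0.507). Its control libraries lay close together, inside the range of the Sms_OE libraries, and without Sms_OE replicate 2 its log2 fold change was -0.02.

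Il12a (ENSMUSG00000027776, chromosome 3, 68690644 to 68698547, plus strand), the p35 subunit of IL-12 and IL-35, had the largest fold change of the 10 genes. It stood at 6.39, 7.14 and 3.59 CPM in Sms_OE, against 1.32, 1.45 and 0.916 CPM in controls. These came from 337, 356 and 186 counts in Sms_OE and 79, 81 and 44 counts in controls, so the gene was low in both groups. Sms_OE replicate 3 was the lowest of its group and still exceeded each control. The log2 fold change was 2.21 ± 0.31 SE (4.63-fold, adjusted p = 0.00121, 0.00165 to 0.00779 with each library left out). Without the haemoglobin-rich libraries it was 2.37 (adjusted p = 0.0116).

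Il12b (ENSMUSG00000004296, chromosome 11, 44400063 to 44414033, plus strand), the p40 subunit that IL-12 and IL-23 share, was read at 2.01, 1.10 and 1.39 CPM in Sms_OE and 3.20, 2.26 and 2.58 CPM in controls. Each Sms_OE library was below each control library, but the gene did not pass (log2 -0.83 ± 0.31 SE, adjusted p = 0.0688). Counts were 106, 55 and 72 in Sms_OE and 192, 126 and 124 in controls. Without Sms_OE replicate 1 the adjusted p was 0.0363 (log2 -1.11), and with each of the others left out it did not pass (up to 0.209). Without the haemoglobin-rich libraries its log2 fold change was -0.42 (adjusted p = 0.538).

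Il23a (ENSMUSG00000025383, chromosome 10, 128296139 to 128298752, minus strand), the p19 subunit specific to IL-23, had 22.5, 26.4 and 14.1 CPM in Sms_OE and 38.6, 34.0 and 37.9 CPM in controls. All 3 Sms_OE libraries were lower than the controls, replicate 3 the furthest. It fell 1.75-fold (log2 -0.81 ± 0.19 SE, adjusted p = 0.0131, 0.00714 to 0.0386 with each library left out). Without the haemoglobin-rich libraries the log2 fold change was -0.72 (adjusted p = 0.0299).

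The chains of IL-27 did not pass. Il27 (chromosome 7, 126589010 to 126594941), which encodes p28, had 6.82, 8.08 and 10.04 CPM in Sms_OE and 9.01, 9.23 and 8.58 CPM in controls (log2 -0.10 ± 0.17 SE, adjusted p = 0.706). Ebi3 (chromosome 17, 55952640 to 55957022) had 48.6, 55.7 and 39.4 CPM in Sms_OE and 41.4, 42.7 and 45.7 CPM in controls (log2 0.15 ± 0.12 SE, adjusted p = 0.421). In both genes the Sms_OE libraries straddled the controls. Il27 overlaps Apobr on the opposite strand, which held up to 5642% of Il27's counts in a library. Ebi3 overlaps the antisense gene Gm16712, which held up to 42.0% of Ebi3's counts. The strand setting used for counting is not given, so the levels of Il27 and Ebi3 are uncertain. The sign of Il27 turned without Sms_OE replicate 1 (log2 0.01), and without the haemoglobin-rich libraries its log2 fold change was -0.40 (adjusted p = 0.292).

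Il6 (ENSMUSG00000025746, chromosome 5, 30013114 to 30019981, plus strand) encodes IL-6. It stood at 36.7, 60.3 and 49.9 CPM in Sms_OE and at 76.1, 128 and 158 CPM in controls. The highest Sms_OE library was below the lowest control library, and the control libraries spread widely. It fell 2.46-fold (log2 -1.30 ± 0.29 SE, adjusted p = 0.0162). The call was lost without Sms_OE replicate 3 (adjusted p = 0.0582, log2 -1.32), and without both haemoglobin-rich libraries (adjusted p = 0.107, log2 -1.72), while the size of the fall held. Il6ra (chromosome 3, 89864059 to 89913196), the ligand-binding receptor chain, had 115, 84.1 and 107 CPM in Sms_OE and 91.6, 82.9 and 72.8 CPM in controls. These ranges overlap, and the gene did not pass (log2 0.31 ± 0.13 SE, adjusted p = 0.1004, or 0.0259 without Sms_OE replicate 2). Il6ra has the longest transcript of the 10 genes, at 8639 bases, and with per-library offsets for transcript length and GC content its log2 fold change was -0.04.

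**Figure D2:**
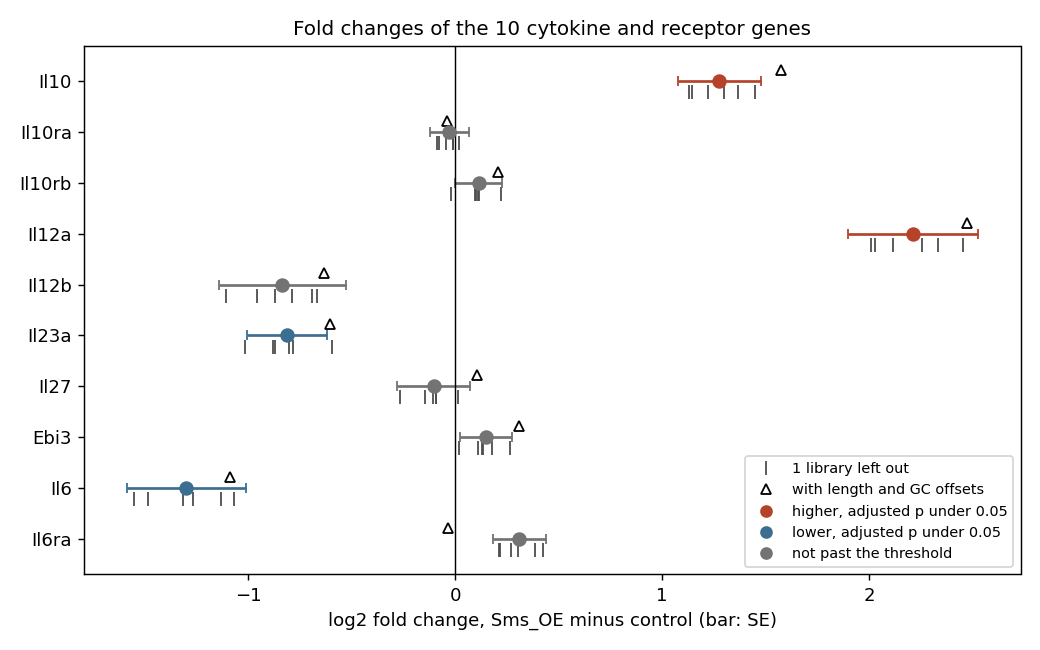
Log2 fold change of each of the 10 genes (x axis, Sms_OE minus control, bar SE), with ticks for the 6 values found when 1 library was left out and triangles for the fit with transcript length and GC offsets. Il10, Il12a, Il23a and Il6 keep their side of 0 throughout, as do Il12b and Ebi3, while Il10ra, Il10rb, Il27 and Il6ra cross it.

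The 250 bases before the annotated start are shown for the most changed genes with a RefSeq entry, and for Ebi3, whose level did not pass the test (GRCm38.p6, all on the plus strand). Capitals mark matches to any of 7 motifs searched: the NF-kB consensus, TTNNGNAA (C/EBP), TGANTCA (AP-1), TGACG (CRE), TTCNNNGAA (STAT) and a paired IRF element on both strands, and TATAAA on the gene's strand. Il12a has 2 annotated starts, and the first is shown.
Il6, chr5:30012864-30013113: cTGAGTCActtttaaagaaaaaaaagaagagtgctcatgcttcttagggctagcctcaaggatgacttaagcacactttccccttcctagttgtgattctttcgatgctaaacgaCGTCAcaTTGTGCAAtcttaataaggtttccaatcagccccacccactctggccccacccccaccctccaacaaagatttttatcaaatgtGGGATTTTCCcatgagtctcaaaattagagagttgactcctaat
Ebi3, chr17:55952373-55952622: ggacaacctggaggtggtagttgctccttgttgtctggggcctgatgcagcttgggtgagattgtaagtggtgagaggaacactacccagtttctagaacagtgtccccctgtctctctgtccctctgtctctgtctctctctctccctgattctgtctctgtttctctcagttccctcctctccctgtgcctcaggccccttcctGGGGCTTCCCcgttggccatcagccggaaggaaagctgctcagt
Il12a, chr3:68690394-68690643: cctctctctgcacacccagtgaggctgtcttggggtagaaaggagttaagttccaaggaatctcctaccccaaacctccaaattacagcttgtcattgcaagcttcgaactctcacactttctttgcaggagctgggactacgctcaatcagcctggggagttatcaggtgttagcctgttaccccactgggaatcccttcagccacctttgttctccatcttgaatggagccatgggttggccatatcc
Il12b, chr11:44399813-44400062: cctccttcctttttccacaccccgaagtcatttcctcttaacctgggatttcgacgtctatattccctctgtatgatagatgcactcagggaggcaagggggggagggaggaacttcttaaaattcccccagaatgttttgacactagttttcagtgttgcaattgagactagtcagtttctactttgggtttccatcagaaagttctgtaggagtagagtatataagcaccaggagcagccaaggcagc

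The Il6 window held 4 matches: AP-1 beginning 249 bases before the start, CRE at 135, C/EBP at 128 and NF-kB at 44. The Ebi3 window held 1, an NF-kB match that also begins 44 bases before its start. Il6 fell and Ebi3 did not pass the test, and whether either match acts in these cells was not tested. Neither the Il12b window nor those of the 2 Il12a starts held a match, which says only that these letters are not in these windows. Of 32851 RefSeq promoter windows of the same length, 7.25% held the NF-kB consensus, 36.8% the C/EBP motif, 6.75% AP-1, 17.8% CRE, 7.02% STAT, 2.98% IRF and 7.59% TATAAA. Windows were found for 5 of the 10 genes. The 2 Il6ra C/EBP matches, at 116 and 70 bases before its start, and its CRE match at 236 were the only others. A match is a description of the letters.

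Levels were compared between genes on a per-length scale, in which counts were divided by the longest transcript and scaled to the same sum in each library (TPM-like). In Sms_OE the order was Il10ra (229 ± 26), Il10rb (111 ± 11), Ebi3 (97.1 ± 11), Il6 (48.8 ± 9.9), Il23a (28.3 ± 7.1), Il6ra (27.99 ± 5.9), Il10 (23.1 ± 2.2), Il27 (19.2 ± 4.5), Il12a (10.2 ± 2.9) and Il12b (1.83 ± 0.62) (mean ± SD, n = 3). Neighbours whose libraries overlapped there were Il10rb with Ebi3, Il23a with Il6ra, Il6ra with Il10, and Il10 with Il27. In controls the order was Il10ra (196 ± 32), Il6 (98.8 ± 26), Il10rb (86.1 ± 6.9), Ebi3 (73.4 ± 3.3), Il23a (42.0 ± 5.2), Il6ra (18.9 ± 3.9), Il27 (17.2 ± 2.1), Il10 (7.92 ± 0.97), Il12b (2.72 ± 0.69) and Il12a (1.87 ± 0.54). Only Il6 with Il10rb and Il6ra with Il27 overlapped among the control neighbours on this length. Part of the order depends on the length used. With the union of exons as length, Ebi3 stood above Il10rb by its mean in Sms_OE (121 against 102) and in controls (89.7 against 77.2). In Sms_OE, Il6ra (34.9) and Il10 (28.8) then stood above Il23a (27.1). By its mean, Il6 stood below Il10rb and Ebi3 in Sms_OE and above both in controls, but in control replicate 1 it was below both (69.4 for Il6, 92.5 for Il10rb and 76.7 for Ebi3). Il12b, next to last in controls, was last in Sms_OE. This scale places genes within a library. Between groups it can move with the level of short abundant RNAs, which was not tested here, so fold changes were taken from CPM.

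Subunit balance shifted most for IL-12. Per length, Il12a over Il12b was 4.74, 9.66 and 3.85 in Sms_OE libraries and 0.614, 0.959 and 0.529 in control libraries, so p35 RNA was the more abundant in each Sms_OE library and the less abundant in each control. Il23a exceeded Il12b in all libraries, at ratios of 12.6, 26.9 and 11.4 in Sms_OE and 13.6, 17.0 and 16.5 in controls, and those ranges overlapped. Ebi3 over Il27 was 6.31, 6.10 and 3.48 in Sms_OE and 4.06, 4.09 and 4.71 in controls, also with overlap, and rests on 2 genes with overlapping antisense partners. Ebi3 over Il12a was 8.60, 8.81 and 12.4 in Sms_OE and 35.4, 33.3 and 56.3 in controls. RNA of p40 was the scarcer chain beside p19 in both groups, and beside p35 in Sms_OE.

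Il10 also moved against both Il12b and Il6. Per length, Il10 over Il12b was 9.17, 20.5 and 11.9 in Sms_OE, against 2.02, 3.31 and 3.83 in controls. Il10 over Il6 was 0.605, 0.453 and 0.400 in Sms_OE, against 0.103, 0.0704 and 0.0756 in controls. The groups did not overlap in either ratio, and Il6 RNA exceeded Il10 RNA in all 6 libraries. On log2 CPM the mean of Il10 minus Il6 was -1.90 ± 0.31 in Sms_OE and -4.44 ± 0.29 in controls, and that of Il10 minus Il12b 3.11 ± 0.58 in Sms_OE and 0.98 ± 0.48 in controls (SD, n = 3 each). These pairs were chosen with results of these data known, so no test is given.

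**Figure D3:**
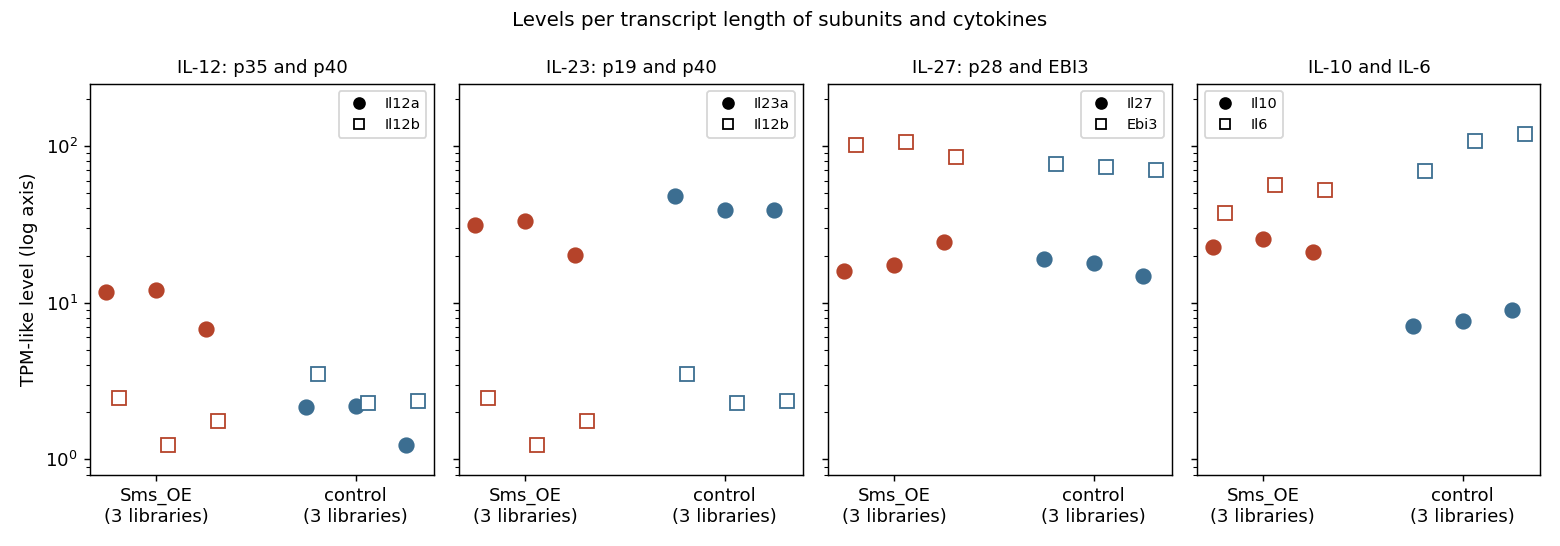
TPM-like level per transcript length (log axis) of paired subunits, and of Il10 with Il6, in the 3 Sms_OE and 3 control libraries (replicates 1 to 3 from left to right in each group). Filled circles of Il12a stand above open squares of Il12b in Sms_OE and below them in controls, and Il10 approaches Il6 in Sms_OE without reaching it.

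The pattern over the 6 libraries most like that of Il12a, the member with the smallest p, was found among 10303 genes with a mean of at least 5 CPM. By Pearson's r of log2 CPM over 6 libraries, the 5 nearest were 4930430E12Rik (r = 0.999), Kctd12 (0.996), Gclc (0.995), M6pr (0.994) and Pde8a (0.993). Gclc encodes the catalytic subunit of glutamate cysteine ligase, and Pde8a a cyclic AMP phosphodiesterase. Their log2 fold changes, 0.13 to 0.78, were far smaller than that of Il12a. Of these genes 4930430E12Rik and M6pr did not pass edgeR's quasi-likelihood test (adjusted p = 0.0655 and 0.274). With 6 points that share a group difference these values are a description, and r says nothing of shared control.

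Genes downstream of and around these cytokines were described by 7 lists, with 92 genes in all, of which 79 were tested. Of these 29 rose (36.7%, against 12.5% of all tested genes) and 8 fell (10.1%, against 14.3%). The lists were chosen with results of these data known, so their shares called are set beside the 26.9% of all tested genes as a description. In the list of receptor chains, kinases, STATs and SOCS genes of the IL-12 and IL-6 families, 5 of 15 rose (33.3% called in either direction, background 26.9%) and 0 fell by edgeR (1 lower at an unadjusted p under 0.05, and 0 by either limma-voom or DESeq2's Wald test), with a median log2 fold change of 0.18. Stat3, the transcription factor of IL-10 and IL-6 signalling, had 416, 411 and 444 CPM in Sms_OE and 269, 302 and 290 CPM in controls, 1.48-fold higher (adjusted p = 0.00203). Socs3, a STAT3-induced inhibitor of gp130 signalling, averaged 542 ± 30 CPM in Sms_OE and 393 ± 27 CPM in controls (log2 0.46 ± 0.10, adjusted p = 0.0064). The kinase Jak1 rose 1.28-fold and Stat4, which IL-12 activates, 1.27-fold. The Jak1 call was lost without control replicate 1 or 2, and that of Stat4 with any 1 library left out other than Sms_OE replicate 2 (adjusted p up to 0.153). Without the haemoglobin-rich libraries neither passed (adjusted p = 0.149 for Jak1 and 0.0707 for Stat4). The number of rises was 2 without control replicate 1 or 2 and without the haemoglobin-rich libraries, and 3 without control replicate 3 or Sms_OE replicates 1 or 3. With length and GC offsets 3 genes rose and 3 fell.

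The receptor chains of that list did not pass. Il6st (gp130) averaged 34.8 ± 3.4 CPM in Sms_OE and 43.0 ± 4.7 CPM in controls without overlap (log2 -0.30 ± 0.11, adjusted p = 0.0747). Il12rb1, shared by the IL-12 and IL-23 receptors, averaged 15.6 ± 1.4 CPM in Sms_OE and 18.1 ± 0.22 CPM in controls. Il12rb2, the second IL-12 receptor chain, averaged 6.71 ± 0.66 CPM in Sms_OE and 5.17 ± 0.89 CPM in controls. Il27ra, the IL-27 receptor chain, averaged 17.1 ± 2.2 CPM in Sms_OE and 16.6 ± 0.47 CPM in controls. Il23r, of the IL-23 receptor, was scarcely read, at 0.275 ± 0.22 CPM in Sms_OE and 0.118 ± 0.20 CPM in controls. These 5 receptor genes were singled out after their values were seen.

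Of the other IL-6 family ligands and receptors, 2 of 9 tested genes rose and 1 fell (33.3% called, background 26.9%), with a median log2 fold change of 0.14. Lif, a gp130 cytokine, had 26.3, 26.8 and 23.6 CPM in Sms_OE, against 9.51, 13.2 and 11.2 CPM in controls. It rose 2.26-fold while Il6 fell (log2 1.17 ± 0.14, adjusted p = 0.000574). Il11ra1, the IL-11 receptor chain, fell 1.52-fold (12.9 ± 0.89 CPM in Sms_OE, 19.6 ± 1.7 CPM in controls, adjusted p = 0.00671, or 0.121 without the haemoglobin-rich libraries). Osmr, the oncostatin M receptor, rose at a low level (1.25 ± 0.63 CPM in Sms_OE, 0.486 ± 0.061 CPM in controls, adjusted p = 0.0476), a call kept only without Sms_OE replicate 3 when 1 library was left out. Oncostatin M itself, Osm, also named after its values were seen, averaged 609 ± 132 CPM in Sms_OE and 812 ± 96 CPM in controls and did not pass (adjusted p = 0.073). On leaving out Sms_OE replicate 2, 3 genes of this list were lower, and 1 was higher without control replicate 2 or 3 or Sms_OE replicate 1 or 2. Without the haemoglobin-rich libraries 0 were lower.

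Of 11 other IL-10 family ligands and receptors only 3 were tested, and 0 passed by edgeR, the DESeq2 Wald test or limma-voom, nor had any an unadjusted edgeR p under 0.05. The most abundant were Ifnlr1, a receptor chain for interferon-lambda (8.49 ± 2.0 CPM in Sms_OE, 6.86 ± 1.0 CPM in controls), and Il20rb, a receptor chain of IL-20 cytokines (4.36 ± 0.73 CPM in Sms_OE, 3.52 ± 0.86 CPM in controls). Il20, Il24 and Ifnl2 were at 0 in all 6 libraries.

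In the list of transcription factors known to act on the Il10, Il12 and Il6 genes, 8 of 22 rose and 5 fell (59.1% called, background 26.9%), with a median log2 fold change of 0.18. Rel, the NF-kB subunit c-Rel that activates Il12b and Il23a in macrophages, had 372, 487 and 429 CPM in Sms_OE and 219, 250 and 229 CPM in controls, 1.85-fold higher (log2 0.88 ± 0.11, adjusted p = 0.000737). Irf8, an activator of Il12b, fell 1.46-fold (139 ± 7.4 CPM in Sms_OE, 203 ± 14 CPM in controls, adjusted p = 0.0021). Batf3, a factor of conventional dendritic cells, fell 2.52-fold (15.5 ± 1.6 CPM in Sms_OE, 39.0 ± 1.3 CPM in controls, adjusted p = 0.000133), and Bcl3, an atypical IkB protein, rose 1.32-fold (log2 0.40, adjusted p = 0.0128). Bcl3 did not pass on leaving out control replicate 3 (adjusted p = 0.057) or the haemoglobin-rich libraries (log2 0.22, adjusted p = 0.267). The rises numbered 2 or 3 without any 1 control library and 2 without the haemoglobin-rich libraries, and the falls 3 without control replicate 1 or 2 or Sms_OE replicate 3.

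Batf3 and Irf8 are also markers of dendritic cells, a further source of Il12b, Il23a and Ebi3. Of 12 dendritic cell markers 6 fell, Batf3 and Irf8 among them, and 1 rose. Their summed level, of which Irf8 was the largest part, was 238 to 281 CPM in Sms_OE and 370 to 432 CPM in controls, with none at 0. Of 8 Kupffer cell markers all 8 rose, summing to 372 to 494 CPM in Sms_OE and 160 to 176 CPM in controls, with none at 0. Stellate cells, fibroblasts and endothelial cells are further sources of Il6. Of 7 tested stellate cell and fibroblast markers 2 rose and none fell, and the 8 listed summed to 109 to 149 CPM in Sms_OE and 77.3 to 96.0 CPM in controls. Of 8 endothelial markers 1 rose and 5 fell, summing to 115 to 158 CPM in Sms_OE and 141 to 159 CPM in controls. Of 10 hepatocyte markers 9 fell, summing to 396 to 608 CPM in Sms_OE and 811 to 1079 CPM in controls. Of 8 B and plasma cell markers 1 rose and none fell, summing to 76.7 to 92.8 CPM in Sms_OE and 48.2 to 53.0 CPM in controls. No marker of these lists was at 0 in every library, and the part of these cell types in the changes of Il10, Il12a, Il23a and Il6 was not tested.

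Among RNA-binding regulators of cytokine mRNA 5 of 10 rose and 1 fell (60% called, background 26.9%), with a median log2 fold change of 0.26. Zc3h12a (Regnase-1), a nuclease that degrades Il6 and Il12b mRNA, averaged 234 ± 35 CPM in Sms_OE and 164 ± 23 CPM in controls (log2 0.51 ± 0.13, adjusted p = 0.0188), a call lost without control replicate 1 or 2 or Sms_OE replicate 2 or 3, and without both haemoglobin-rich libraries (log2 0.28, adjusted p = 0.32). Arid5a, which stabilises Il6 mRNA, rose 1.34-fold (adjusted p = 0.00419), and Rc3h1 and Rc3h2, the roquin genes, both 1.36-fold (adjusted p = 0.00779 and 0.00595). With length and GC offsets the log2 fold changes of Arid5a, Rc3h1 and Rc3h2 were 0.18, 0.05 and 0.15 and none of these 3 passed, with 2 genes of the list higher and 2 lower. The rises numbered 3 without control replicate 1 or 2 or Sms_OE replicate 3, where the fall was lost too, and 0 without the haemoglobin-rich libraries, where the adjusted p was 0.0787 for Arid5a, 0.197 for Rc3h1 (log2 0.27) and 0.118 for Rc3h2.

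Of 12 genes that IL-10 is known to induce in macrophages 7 rose and 1 fell (66.7% called, background 26.9%), with a median log2 fold change of 0.38. Cd163, which takes up haemoglobin bound to haptoglobin, was low and rose 4.72-fold (8.47 ± 4.8 CPM in Sms_OE, 1.80 ± 0.44 CPM in controls, adjusted p = 0.0026). Sbno2, a STAT3-induced corepressor, rose 1.43-fold (293 ± 23 CPM in Sms_OE, 205 ± 8.5 CPM in controls, adjusted p = 0.00338), but with the offsets its log2 fold change was 0.21 (adjusted p = 0.0657), and without the haemoglobin-rich libraries 0.41 (adjusted p = 0.06). Tnip3, an inhibitor of NF-kB signalling, fell 2.22-fold (12.9 ± 1.4 CPM in Sms_OE, 28.5 ± 1.6 CPM in controls, adjusted p = 0.000328). Socs3 and Bcl3, described above, and Nfil3 are in this list as well as another. The rises numbered 4 without control replicate 3 and 2 without the haemoglobin-rich libraries. Cd163 was highest, at 14.0 CPM, in Sms_OE replicate 2, one of those libraries, and without both its log2 fold change was 1.65 (adjusted p = 0.0366).

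Effector genes of the lymphocytes that IL-12 and IL-23 act on were higher: 5 of 11 tested rose (45.5% called, background 26.9%) and 0 fell by edgeR (0 lower at an unadjusted p under 0.05, and 0 by either limma-voom or DESeq2's Wald test), with a median log2 fold change of 0.71. Ifng, the interferon-gamma gene, had 23.2, 18.4 and 22.4 CPM in Sms_OE and 9.71, 12.3 and 14.2 CPM in controls, 1.77-fold higher (adjusted p = 0.00507). Tbx21, the T-bet factor that drives Ifng, rose 1.66-fold (adjusted p = 0.01, or 0.0561 without control replicate 2), and Il18rap, an IL-18 receptor chain, 1.34-fold (adjusted p = 0.0106, lost without control replicate 2 or 3). Il17a was low and rose to 1.17 ± 0.24 CPM in Sms_OE, against 0.253 ± 0.14 CPM in controls (adjusted p = 0.0112). Without the haemoglobin-rich libraries Tbx21, Il18rap and Il17a did not pass (adjusted p = 0.0512, 0.156 and 0.105). The rises numbered 2 without control replicate 2 and 2 without the haemoglobin-rich libraries. Beside them, 2 of 10 T cell markers rose and none fell, and of 7 NK cell markers 1 fell (summed level 112 to 128 CPM in Sms_OE, 131 to 167 CPM in controls), and none of either list was at 0. Their part in the rise was not tested.

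**Figure D4:**
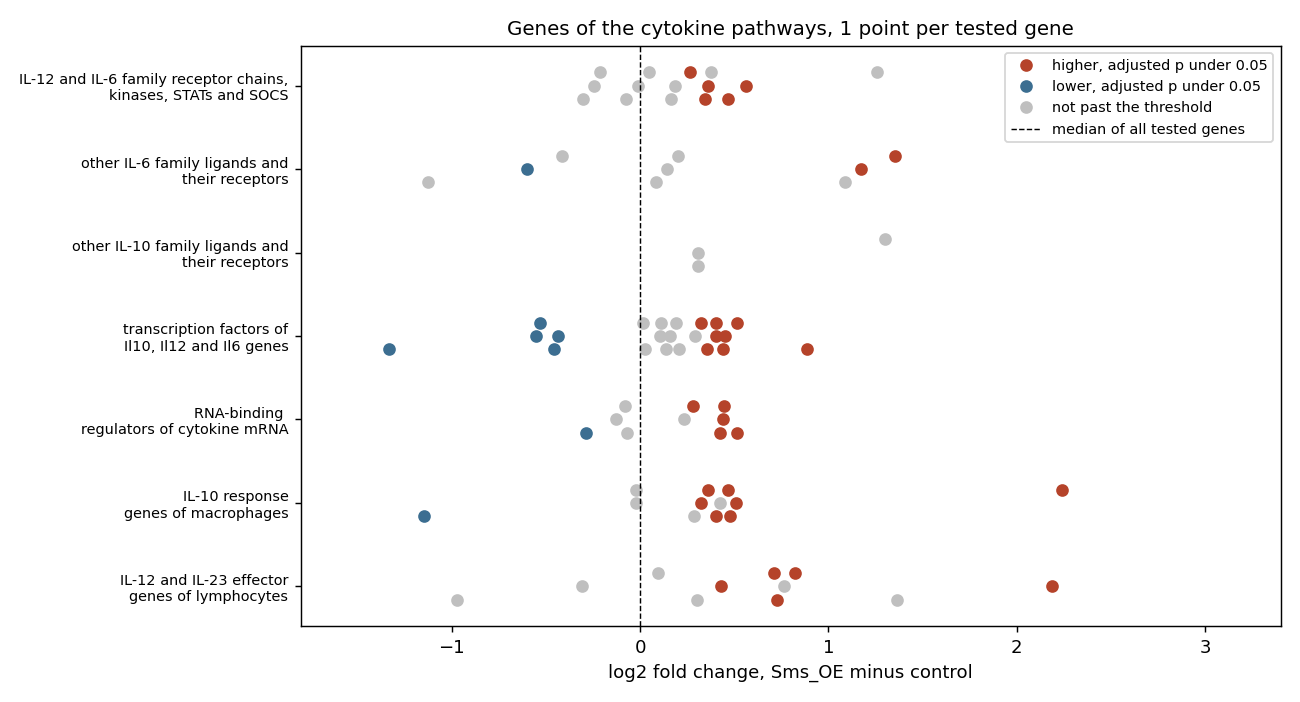
Log2 fold change (x axis, Sms_OE minus control) of each tested gene of the 7 lists, coloured by call, with the median of all tested genes as a dashed line. Red points outnumber blue ones in each list that has a called gene, and the list of other IL-10 family genes has none.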

How the data were processed

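The authors deposited 1 table of estimated counts for each gene, in whole numbers without normalization. The submitters' processing notes name HISAT2 2.2.1, StringTie 2.1.6, DESeq2, cutadapt 1.9 and FastQC 0.11.9, with no roles. Per the labels' protocols, total RNA was selected on oligo(dT) beads, and dUTP and UDG were used. For the genome build, annotation, counting step and strand setting no entry was found in the sources used here. Symbols, coordinates and lengths came from GENCODE M21 (GRCm38) by Ensembl identifier, and 260 rows had none.

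The test was edgeR 4.0.16 (R 4.3.3): filterByExpr, TMM factors, robust glmQLFit and glmQLFTest on all 6 libraries, with Benjamini-Hochberg adjustment over 18277 genes and a threshold of 0.05. CPM use TMM-scaled library sizes, and log2 CPM a prior count of 2. Standard errors come from the F statistic. The test was checked on simulated counts with known changes. Its acceptance rule at first asked for a set share of changed genes to be recovered. The test missed that share, and the rule was then changed, after this was seen, to the size and sign of fold changes and the share of false calls. That share came out above the nominal threshold. Known changes of every size tried were missed in part, and most of the smallest were not called, so a gene that did not pass may still differ.

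Groups came from the titles and columns from the descriptions. At most 3.65% of genes with a count had identical counts in 2 libraries of 1 group. Named genes were the 10 members and, from each list, at most 4 called genes in order of p, or, with none called, the 2 with the most CPM. Members and lists were chosen with earlier results of these data known. Alternatives were other scalings, filters and tests (DESeq2 1.42.0, limma 3.58.1), the replicate number as a block, leaving out haemoglobin and mitochondrial genes, offsets for GC content and length, and libraries left out.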

Additional observations from a re-analysis of the deposited data

How the results depend on the processing

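Of 180 values for the 10 genes under 18 alternatives, 167 kept their direction and side of the threshold, including all those of Il10, Il12a and Il23a. The Il6 call was lost with no low-count filter (adjusted p = 0.0589), without Sms_OE replicate 3 and without the haemoglobin-rich libraries. Signs turned for genes that had not passed: Il10ra gave 0.0070 with upper-quartile factors, 0.033 with library size alone, 0.00092 with a CPM of at least 1 in 3 libraries and -0.087 to 0.019 with 1 library left out (above 0 without control replicate 1), Il27 gave 0.11 with length and GC offsets and -0.267 to 0.015 with 1 library left out (above 0 without Sms_OE replicate 1), Il6ra gave -0.036 with the offsets, and Il10rb -0.022 to 0.221 with 1 library left out (below 0 without Sms_OE replicate 2). The mean difference of Il23a minus Il12b, Sms_OE minus control, was -0.0074 with a prior count of 2 and 0.0046 with 0.5. The cause was not tested.

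All calls numbered 4908 (2293 higher, 2615 lower). Leaving out 1 library gave 3050 to 4488 (1366 to 2015 higher, 1684 to 2473 lower), and leaving out both haemoglobin-rich libraries 1384 (690 higher, 694 lower), with fewer samples. Without those libraries 1 member, 0 other IL-6 family genes and 0 RNA-binding regulators were lower, and rises numbered 2 among receptor chains, kinases, STATs and SOCS, 2 among transcription factors, 0 among RNA-binding regulators, 2 among IL-10 response genes and 2 among effector genes. Leaving out 1 library gave 2 to 3 members higher and 1 to 3 lower. It gave rises of 2 to 4 in the signalling list, 1 to 2 in the other IL-6 family (1 to 3 falls), 2 to 8 for transcription factors (3 to 4 falls), 3 to 4 for RNA-binding regulators (0 to 1 falls), 4 to 8 for IL-10 response genes and 2 to 6 for effector genes. With the length and GC offsets the signalling list had 3 higher and 3 lower, the other IL-6 family 1 higher, and RNA-binding regulators 2 higher and 2 lower. With no low-count filter 1 member was lower, the signalling list had 3 higher, and the other IL-6 family 1 higher and 2 lower. The other IL-6 family had 1 higher and 2 lower with a CPM of at least 1, 3 lower by the DESeq2 Wald test, 1 higher and 3 lower by limma-voom, and 1 higher with no robust step. With library size alone 0 RNA-binding regulators were lower.

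With the replicate number as a block, 3 signalling genes rose, and 1 other IL-6 family gene rose and 2 fell. Deviations of libraries with the same number correlated at 0.27, 0.07 and -0.13 for numbers 1 to 3, and not every sample correlated best with its own number. What the number stands for is not given. With 3 libraries per group these values cannot decide whether samples of the same number are paired. Among 25 other named genes 395 of 448 values kept their call, 53 missed the threshold and 0 turned sign. With the union of exons as length, 12 of 20 mean levels moved by more than 1 SD, and Ebi3 stood above Il10rb in both groups. Depth limits Il12b, at 55 to 192 counts, and Il12a, at 44 to 356.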
